A study of Rattus norvegicus with 4 samples.

Results

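Mitochondrial ribosomal proteins are the nuclear-encoded protein subunits of the mitoribosome, the machine that translates the messenger RNAs of the mitochondrial genome. The mRNAs translated there all encode subunits of the respiratory chain and of ATP synthase, so the mitoribosome feeds the oxidative capacity of muscle. Its proteins are made in the cytosol and imported, and many of them have no counterpart in bacterial ribosomes. The genes were taken by symbol, as all probe sets with 1 gene symbol beginning with Mrpl (large subunit) or Mrps (small subunit) and a digit. They came to 97 probe sets for 73 genes, out of 14218 genes on the array, and where a gene had several, the brightest on average over the 4 arrays stands for it. The rule for members uses the symbol alone.

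The study set electrical stimulation (ES) of nerve and muscle, and exercise, beside untreated ischemia, in rats made to model intermittent claudication, a pain in the legs that comes with walking when arteries are narrowed. Its 4 arrays hold total RNA of skeletal muscle of F344/DuCrlCrlj rats: 1 array of ischemia + ES, 1 of ischemia + exercise, 1 of ischemia and 1 of sham. The first 3 share the ischemia and sham has none. The labels do not say which muscle was taken, how many animals of what age gave RNA, whether RNA was pooled, and when and how long ES and exercise were given. With 1 array per group no value below has an error or a test, and every comparison is one between 2 arrays.

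The arrays are single-colour oligonucleotide arrays, and a value is a MAS5 signal on a linear scale. Values under 30.1, the median of all values, were set to that floor before log2 ratios were taken, and 10092 genes lay above it on at least 1 array. All 73 genes lay above it on all 4 arrays, so none has only a bound, and the lowest of their signals was 3.50 times the floor. They split into 48 genes of large-subunit proteins and 25 of small-subunit proteins. Mrps18a and Mrps30 count with the large subunit, where their proteins sit despite the symbol. The RNA was of muscle, with the 5 fast-fibre markers summing to a signal of 58711 with ES, 58201 with exercise, 53014 with ischemia and 57576 in sham.

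Most of the 73 genes had their highest signal with ES, and most had their lowest with untreated ischemia, by small amounts. Both held for 30 of the 73, and for 1258 of the 10092 genes compared. The ES array held the highest of the 4 signals for 53 of the 73 genes, where it did so for 39.7% of the 10092 genes compared. The ischemia array held the lowest signal for 41 of them, against 24.3% of all genes. The exercise array held it for 29, and for 1909 of the 10092 genes compared. The sham array was highest for 11 of the 73 genes and lowest for 1. Over the 10092 genes compared it was highest for 1757 and lowest for 2344. In bulk tissue, fewer cells of a type and less RNA per cell cannot be told apart. No gene of the family differed 2-fold in any of the 4 comparisons below. The picture of all members relative to sham shows the ES column above 0 in 59 of 73 genes and the other 2 columns mostly below it.

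**Figure D1:**
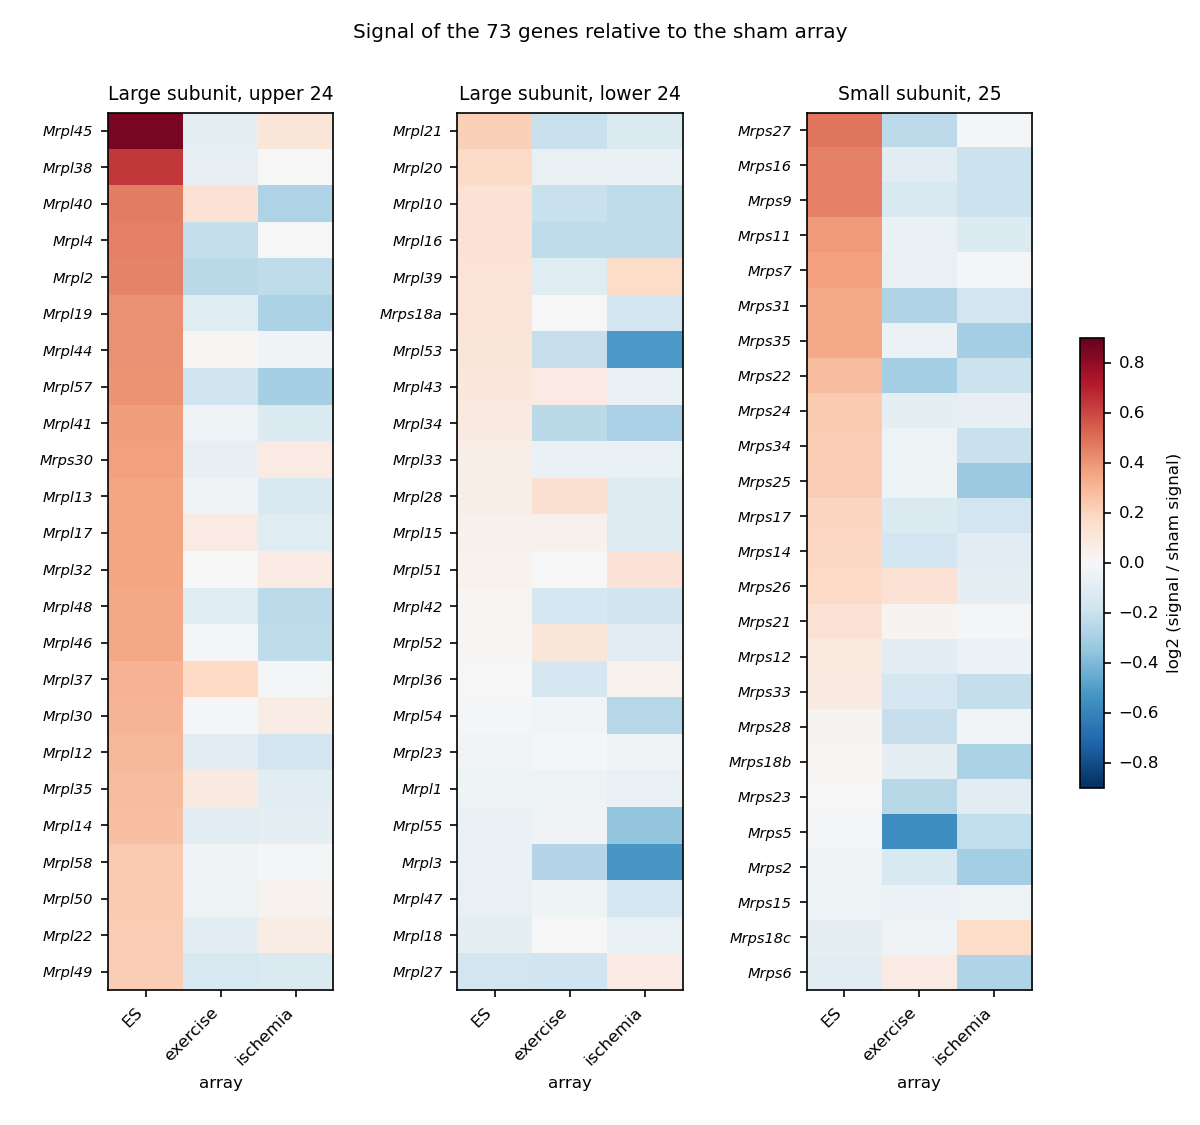
Log2 of the signal with ES, exercise or ischemia over the sham signal (colour, red above and blue below 0) for the 48 large-subunit genes, in 2 panels ordered by the ES column, and the 25 small-subunit genes, 1 array per column. The ES column is above 0 for 59 of 73 genes and reaches 0.86 at Mrpl45, the exercise column is below 0 for 59 and the ischemia column for 62.

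Measures of RNA quality moved with this order, while spiked-in controls did so only in part. The part of either in it was not tested. For actin the signal of the 3' probe set over that of the 5' probe set, a ratio that is high in degraded RNA, was 5.94 with ES, 4.34 with exercise, 3.81 with ischemia and 4.38 in sham. For GAPDH it was 1.26, 1.16, 1.04 and 1.16 in that order of arrays. Both ratios were highest with ES and lowest with ischemia. The 9 spiked-in hybridisation controls had a median log2 ratio of 0.08 with ES against ischemia, with a range of -0.01 to 0.19. Their median was 0.10 with ES against exercise, -0.05 with exercise against ischemia and 0.02 with ischemia against sham.

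With ES against untreated ischemia, 66 of the 73 genes were higher and 7 lower, against 56% of all genes compared above 0. The median log2 ratio was 0.31, a 1.24-fold difference, where the median of all genes was 0.05. No gene of the 73 passed 2-fold, as 3.07% of all genes did in either direction. Of the 73, 11 were at least 1.5-fold higher, against 9.8% of all genes, and none was 1.5-fold lower, against 4.72%. Genes compared whose mean signal fell in the range of the members, 5541 in number, had a median of 0.01 and 51.6% above 0.

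**Figure D2:**
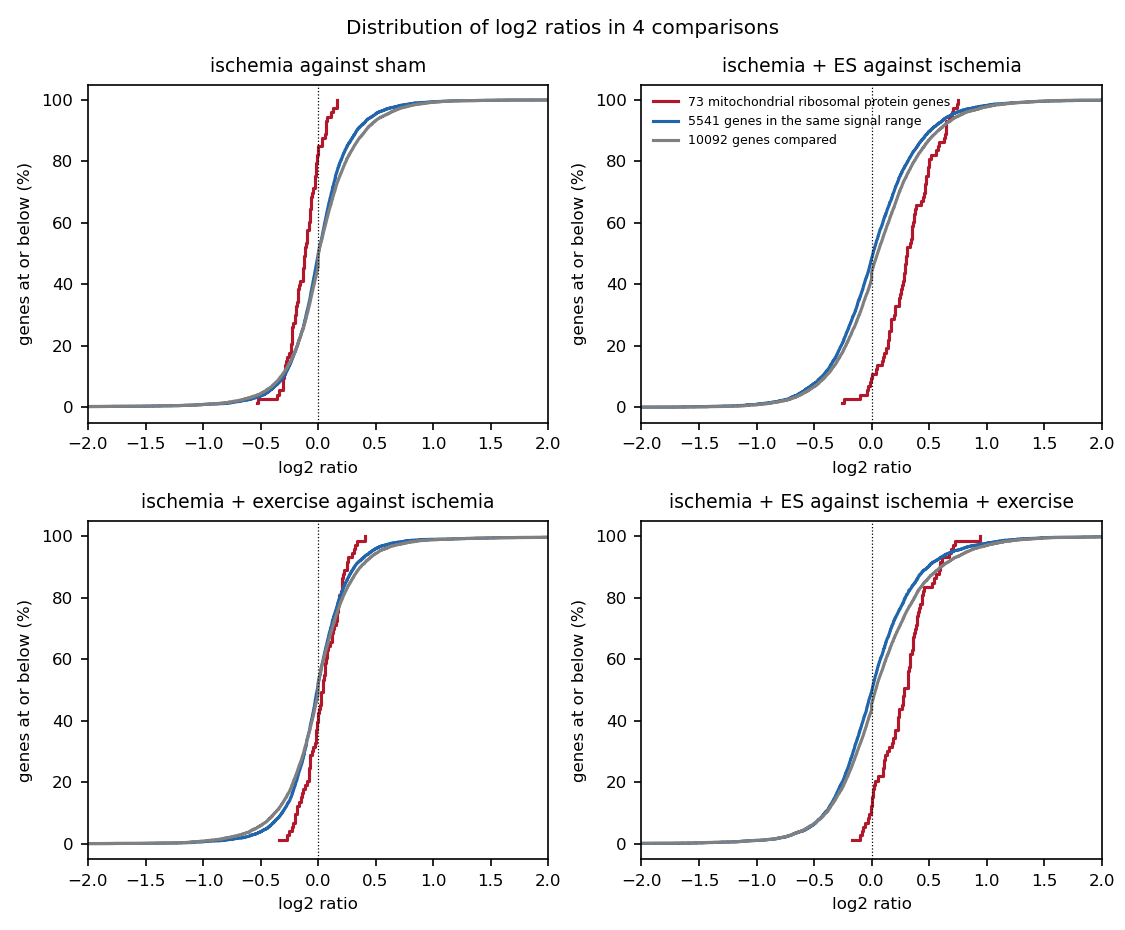
Cumulative share of genes (percent, vertical axis) against their log2 ratio (horizontal axis) in the 4 comparisons, for the 73 mitochondrial ribosomal protein genes (red), the 5541 genes in their range of mean signal (blue) and all 10092 genes compared (grey). At its middle the red curve lies right of the others in both comparisons with ES on top (medians 0.31 and 0.28), left of them for ischemia against sham (-0.11), and close to them for exercise against ischemia (0.04). The curves cross in the tails, since no member reaches 2-fold.

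The 5 highest ratios of ES against ischemia were all of large-subunit genes. Mrpl45, whose protein sits at the exit of the nascent peptide and helps hold the mitoribosome to the inner membrane, had a signal of 1831 with ES, 952 with exercise, 1091 with ischemia and 1010.2 in sham. Its ES signal stood apart from the other 3, which lay close together, and its log2 ratio of 0.75 over ischemia was the highest of the family. Mrpl40, a large-subunit protein without a bacterial counterpart, had a signal of 1011 with ES, 803 with exercise, 604 with ischemia and 733 in sham, a log2 ratio of 0.74. Its second probe set gave only 0.12, so the size for this gene depends on the probe set. Mrpl57, also without a bacterial counterpart, had a signal of 803 with ES, 536 with exercise, 492 with ischemia and 606 in sham. Its log2 ratio was 0.71, and 0.27 on its dimmer probe set. Mrpl19, which has a bacterial counterpart, had a signal of 913 with ES, 635 with exercise, 562 with ischemia and 685 in sham, a log2 ratio of 0.70. Mrpl2, a core protein near the peptidyl transferase centre, had a signal of 406 with ES, 252 with exercise, 255 with ischemia and 298 in sham, a log2 ratio of 0.67. In all 5 the ES array was the highest of the 4.

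In the small subunit the highest ratios were those of Mrps9, Mrps16 and Mrps35, all near 0.65. Mrps9, with a bacterial counterpart, had a signal of 828 with ES, 549 with exercise, 527 with ischemia and 604 in sham, a log2 ratio of 0.65, and its other probe set gave 0.61. Mrps16, which also has one, had a signal of 1183 with ES, 802 with exercise, 754 with ischemia and 862 in sham. Mrps35, without a bacterial counterpart, had a signal of 513 with ES, 391 with exercise, 327 with ischemia and 405 in sham, a log2 ratio of 0.65. All 3 were 1.57-fold higher with ES than with ischemia, and ES was their highest array. Mrps25 (0.56), Mrps31 (0.51), Mrps11 (0.50), Mrps27 (0.49) and Mrps22 (0.48) came next. Below them, Mrps34, a gene in which human mutations cause mitochondrial disease, had a signal of 774 with ES, 641 with exercise, 574 with ischemia and 660.5 in sham, a log2 ratio of 0.43.

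The genes at the low end with ES against ischemia lay near 0 or below it. Mrps18c, one of 3 mitochondrial paralogues of a bacterial small-subunit protein, had a signal of 421 with ES, 438 with exercise, 503 with ischemia and 448 in sham. That is the lowest log2 ratio of the family at -0.26, but its dimmer probe set was at 0.24. Mrpl27, which sits near the peptidyl transferase centre, had a signal of 1585 with ES, 1570.2 with exercise, 1871 with ischemia and 1779.6 in sham, a log2 ratio of -0.24 from its single probe set. Mrpl51 was at -0.10, Mrpl39, which resembles a threonyl-tRNA synthetase, at -0.04 and Mrpl36 at -0.03, and the last of these changed sign under quantile normalization. These 5 genes had their highest signal with ischemia, and no other member did.

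**Figure D3:**
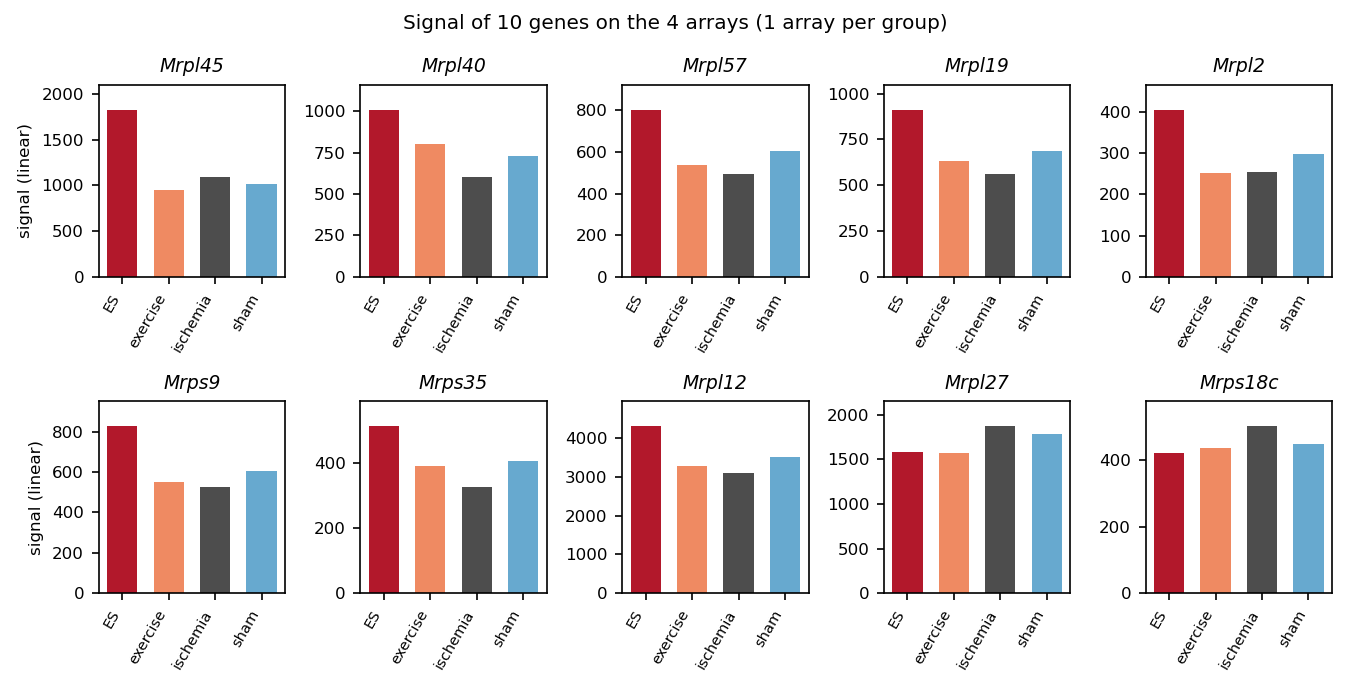
MAS5 signal on a linear scale (vertical axis, a scale of its own per gene) on the 4 arrays, from left to right ES, exercise, ischemia and sham, for 10 genes, 1 bar per array and no error bars. The ES bar is the tallest for the first 8 genes, while Mrpl27 and Mrps18c are highest with ischemia (signals of 1871 and 503).

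Several of the genes fixed for naming lay nearer the middle of the family with ES against ischemia. Mrpl12, the flexible stalk protein that recruits translation factors, had a signal of 4301 with ES, 3265 with exercise, 3101 with ischemia and 3501 in sham. Its log2 ratio was 0.47, and 0.20 on a dimmer probe set. Mrps18a was at 0.29 and Mrps30 also at 0.29. Mrpl58, a peptidyl-tRNA hydrolase that rescues stalled mitoribosomes, was at 0.26, and Mrps12, a protein of the decoding site, at 0.14. All 5 had their highest signal with ES.

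By structural class the shift with ES was spread over both subunits. The 48 large-subunit genes had a median log2 ratio of 0.31 over ischemia and the 25 small-subunit genes one of 0.31. Of 26 large-subunit genes with bacterial counterparts 23 were above 0 (median 0.31), and of 21 without, 19 (median 0.33). In the small subunit 13 of 15 with bacterial counterparts were above 0 (median 0.28), and all 10 without (median 0.45). The 10 ran from Mrps28 at 0.05 to Mrps35. The differences between these classes were not tested.

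For 14 of the genes there was more than 1 probe set above the floor on all 4 arrays, 30 probe sets in all, which gives a check within each array. With ES against ischemia the probe sets of 11 of the 14 genes had the same sign, and those of Mrpl51, Mrps18c and Mrps27 did not. The 16 probe sets that had not been chosen as brightest were above 0 in 13 cases, with a median log2 ratio of 0.21. Within a gene the probe sets spanned a median of 0.20 on the log2 scale, and at most 0.83, at Mrpl51. A difference between single members is therefore to be read against a disagreement of that size. With ES against exercise 13 of the 14 agreed in sign, all but Mrpl51.

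**Figure D4:**
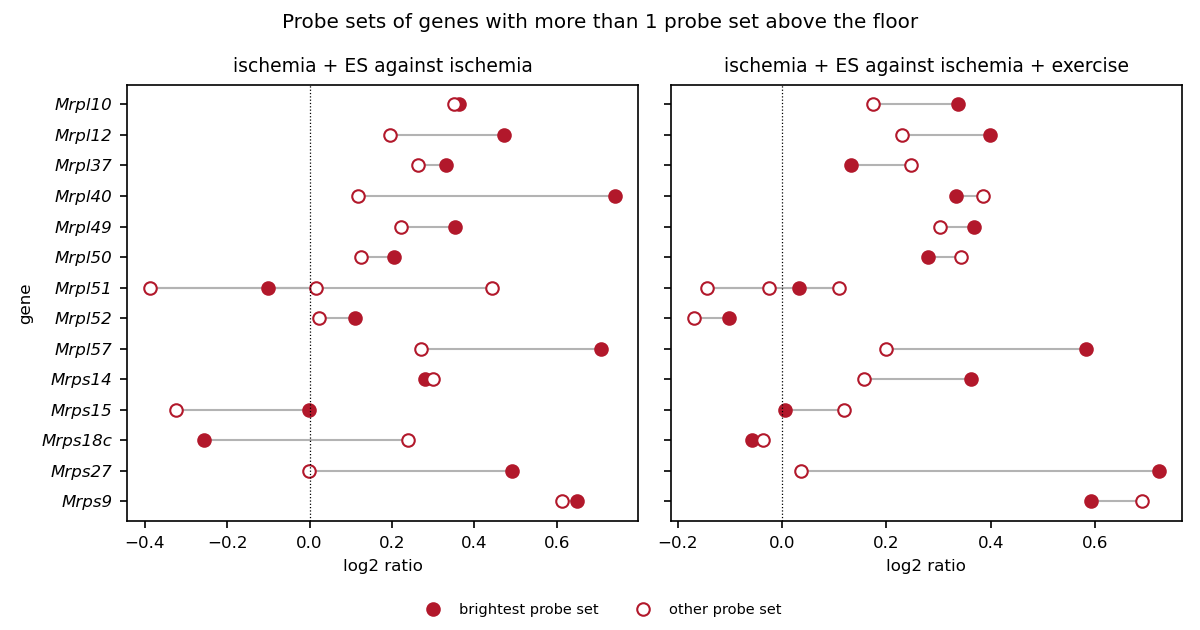
Log2 ratio (horizontal axis) of each probe set above the floor on all 4 arrays, for the 14 genes with more than 1, with ES against ischemia (left) and ES against exercise (right). Filled points are the brightest probe set of a gene, open points its others, and grey lines join them. Most points lie right of 0, and Mrpl51 spreads over 0.83 in the left panel.

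The promoters of genes at both ends of the ES difference are shown next, because most members lay on the same side of 0 and the factors searched for are known to bind promoters of nuclear genes for mitochondrial proteins. Sequences are from RefSeq on the rat build GRCr8, 250 bases before to 50 after an annotated start, on the gene's strand, and 59 of the 73 genes had 61 such windows. They were searched on both strands for GCGCA and GCGC with 1 base of any kind between them (nuclear respiratory factor NRF1), CCGGAAG (the ETS site that GABPA binds) and AANATGGC (YY1), and matches are in capitals. Mrpl45 (chr10:82804789-82805088, + strand) and Mrpl57 (chr15:36086207-36086506, + strand) are among the 5 highest with ES, as are Mrpl40 (chr11:95637501-95637800, + strand) and Mrpl2 (chr9:21834558-21834857, - strand). Among the 5 lowest only Mrpl27 (chr10:80092095-80092394, + strand) is shown. The last window (chr1:142116981-142117280, - strand) is that of Mrpl46, which overlaps the window of Mrps11 on the other strand by 267 bases.
Mrpl45: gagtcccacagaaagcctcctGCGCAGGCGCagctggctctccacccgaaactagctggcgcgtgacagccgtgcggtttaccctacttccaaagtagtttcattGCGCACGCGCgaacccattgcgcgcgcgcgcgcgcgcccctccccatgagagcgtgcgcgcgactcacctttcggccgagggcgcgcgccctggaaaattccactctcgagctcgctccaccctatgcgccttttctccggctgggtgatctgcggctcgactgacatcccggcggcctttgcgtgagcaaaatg
Mrpl40: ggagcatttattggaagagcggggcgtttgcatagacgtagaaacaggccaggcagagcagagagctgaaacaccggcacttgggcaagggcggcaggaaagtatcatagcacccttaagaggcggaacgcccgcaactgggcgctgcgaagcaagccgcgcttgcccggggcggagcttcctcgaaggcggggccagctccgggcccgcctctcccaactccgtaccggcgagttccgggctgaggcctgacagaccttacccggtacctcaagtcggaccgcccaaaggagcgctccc
Mrpl57: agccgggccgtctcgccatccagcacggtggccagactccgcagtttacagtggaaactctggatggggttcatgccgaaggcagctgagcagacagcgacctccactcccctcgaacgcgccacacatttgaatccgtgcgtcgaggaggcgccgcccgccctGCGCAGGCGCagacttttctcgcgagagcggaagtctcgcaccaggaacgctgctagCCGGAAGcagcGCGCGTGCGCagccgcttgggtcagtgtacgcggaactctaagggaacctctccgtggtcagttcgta
Mrpl2: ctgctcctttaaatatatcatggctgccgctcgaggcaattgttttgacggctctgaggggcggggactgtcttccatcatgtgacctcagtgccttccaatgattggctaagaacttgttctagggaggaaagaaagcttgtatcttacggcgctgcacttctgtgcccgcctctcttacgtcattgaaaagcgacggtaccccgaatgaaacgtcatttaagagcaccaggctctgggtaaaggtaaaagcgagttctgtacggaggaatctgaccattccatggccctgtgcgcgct
Mrpl27: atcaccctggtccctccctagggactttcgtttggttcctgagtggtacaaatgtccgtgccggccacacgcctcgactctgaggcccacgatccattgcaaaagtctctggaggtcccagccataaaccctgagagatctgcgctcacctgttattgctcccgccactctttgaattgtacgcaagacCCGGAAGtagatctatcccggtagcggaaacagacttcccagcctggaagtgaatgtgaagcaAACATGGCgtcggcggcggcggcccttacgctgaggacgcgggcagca
Mrpl46: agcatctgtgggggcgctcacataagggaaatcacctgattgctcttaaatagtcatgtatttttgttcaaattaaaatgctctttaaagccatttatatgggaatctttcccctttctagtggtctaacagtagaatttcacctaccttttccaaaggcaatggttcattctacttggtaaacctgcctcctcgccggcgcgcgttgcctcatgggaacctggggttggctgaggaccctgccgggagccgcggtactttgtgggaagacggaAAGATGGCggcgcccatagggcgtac

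Mrpl45 held 2 NRF1 matches, Mrpl57 held 2 NRF1 matches and 1 ETS match, Mrpl27 1 ETS and 1 YY1 match, and Mrpl46 1 YY1 match. Mrpl40 and Mrpl2, at the same end of the range as Mrpl45 and Mrpl57, held no match, and Mrpl19 at that end had no window. At the low end, among genes not shown, Mrps18c held 1 ETS match and Mrpl36 1 ETS and 1 YY1 match. Mrpl51 and Mrpl39 at the low end held no match. Over the 61 windows of the family 9 (14.8%) held the NRF1 letters, 20 (32.8%) the ETS letters and 21 (34.4%) the YY1 letters. In all 33469 rat windows the shares were 4.25%, 8.75% and 6.96%, and in the 9373 windows of the genes compared 9.79%, 17.6% and 10.3%. The median GC content was 56% in the family and 60.7% in the genes compared. YY1 letters on the gene's own strand within the 50 bases after the start stood in 18 of the family's windows (29.5%), against 4.17% of those of the genes compared. The YY1 letters hold an ATG, and whether a match is the start codon was not tested. The median log2 ratio over ischemia was 0.35 for 9 genes with NRF1 letters and 0.29 for 50 without, 0.26 and 0.30 for ETS, and 0.28 and 0.33 for YY1. A match is a description of the letters and not a measured site.

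Mrpl46 and Mrps11 are neighbours on chromosome 1 that start back to back, a pair chosen after its values were seen. Mrpl46 had a signal of 470.4 with ES, 366 with exercise, 315 with ischemia and 369.7 in sham. Mrps11, the small-subunit gene on the other strand, had a signal of 628 with ES, 462 with exercise, 443 with ischemia and 482 in sham. Both were highest with ES and lowest with ischemia, with log2 ratios between these arrays of 0.58 for Mrpl46 and 0.50 for Mrps11.

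Set against exercise, the ES array was higher for 64 of the 73 genes and lower for 9, against 54.5% of all genes above 0. The median log2 ratio was 0.28, where that of all genes was 0.03. No gene of the family passed 2-fold, where 4.05% of all genes did. Of the 73, 8 were at least 1.5-fold higher, against 10.5% of all genes, and none was 1.5-fold lower, against 4.6%. This comparison does not use the ischemia array. It shares the ES array with the one above, so the 2 are not independent.

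Mrpl45 again had the highest ratio, 1.92-fold (log2 0.94). It was followed by Mrps27, a small-subunit protein with pentatricopeptide repeats, at 0.72 and Mrpl38 at 0.71. Mrpl2 was at 0.69 and Mrpl4, which lines the exit tunnel, at 0.67. Mrps27 had a signal of 174 with ES, 105 with exercise, 124 with ischemia and 124 in sham, and its other probe set above the floor on all arrays gave 0.04. Mrpl38 had a signal of 482 with ES, 295 with exercise, 309.9 with ischemia and 310.2 in sham from a single probe set, so its ES signal alone stood apart. At the low end lay Mrps6 at -0.17, Mrpl52 at -0.10, Mrpl28 at -0.08, Mrpl18 at -0.07 and Mrps18c at -0.06. Mrps6, with a bacterial counterpart, had a signal of 682 with ES, 767 with exercise, 606 with ischemia and 730.4 in sham, and exercise was its highest array.

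With exercise against untreated ischemia the family showed no common direction. Of the 73 genes 42 were above 0 and 31 below, against 47.7% of all genes above 0, and the median log2 ratio was 0.04 beside 0.00 for all genes. None passed 2-fold, where 2.01% of all genes did. None was 1.5-fold higher or lower either, where 4.02% and 4.24% of all genes were. The range ran from -0.34 to 0.41, and within 1 gene the probe sets spanned up to 0.71, at Mrpl51. The slow-fibre markers on the same 2 arrays lay far apart. All 5 (Myh7, Tnnt1, Tnni1, Tnnc1 and Myl2) were higher with exercise, with a median log2 ratio of 3.11 and a summed signal of 45505 with exercise against 6680.1 with ischemia. With ES the same sum was 12798, and in sham 39536, so the arrays with most slow-fibre signal were exercise and sham. The 5 fast-fibre markers had a median log2 ratio of 0.13 with exercise against ischemia, with all 5 above 0. Their median was 0.28 with ES against ischemia (4 of 5 above 0) and 0.10 with ES against exercise (3 of 5 above 0). With ischemia against sham it was -0.14 (4 of 5 below 0). The part of fibre type in the values above was not tested.

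The highest ratios with exercise were those of Mrpl40 (0.41, and -0.27 on its second probe set), Mrps6 (0.34), Mrpl55 (0.32), Mrpl53 (0.31) and Mrps25 (0.29). The lowest were Mrps5 (-0.34), Mrpl39 (-0.27), Mrpl27 (-0.25), Mrps27 (-0.23) and Mrpl4 (-0.21). Mrps5, a small-subunit protein with a bacterial counterpart, had a signal of 539 with ES, 371 with exercise, 468 with ischemia and 546 in sham. Its exercise signal was below the other 3, 1.47-fold under sham.

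With ischemia against sham, 62 of the 73 genes were lower and 11 higher, against 45.6% of all genes below 0. The sizes were small, with a median log2 ratio of -0.11 beside 0.00 for all genes. None passed 2-fold, where 1.64% of all genes did. None was 1.5-fold higher or lower, where 4.94% and 3.19% of all genes were. In the small subunit 24 of 25 genes were lower and in the large subunit 38 of 48. Of the 16 probe sets that had not been chosen as brightest, 13 were below 0.

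Mrpl3, a core large-subunit protein in which human mutations cause cardiomyopathy, was the lowest with ischemia. It had a signal of 1649 with ES, 1431 with exercise, 1195 with ischemia and 1722 in sham, a log2 ratio of -0.53 between ischemia and sham. Mrpl53, a large-subunit protein without a bacterial counterpart, had a signal of 2084 with ES, 1669 with exercise, 1347 with ischemia and 1931 in sham, a log2 ratio of -0.52. For both the ischemia array was the lowest of the 4, and the ES and sham signals were within 1.08-fold. Mrpl55 (-0.35), Mrps25 (-0.34) and Mrps35 (-0.31) followed. The 5 highest were Mrps18c (0.17), Mrpl39 (0.16), Mrpl51 (0.13), Mrpl45 (0.11) and Mrps30 (0.08), and for Mrps18c and Mrpl51 other probe sets had the opposite sign.

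Against sham, the ES array was higher for 59 genes, where 56.9% of all genes were above 0, with a median log2 ratio of 0.20. Mrpl45 (1.81-fold) and Mrpl38 (1.55-fold) were at least 1.5-fold higher, against 12.4% of all genes. The exercise array was lower than sham for 59 genes, where 44.4% of all genes were below 0, with a median of -0.07. The comparisons with ischemia and with sham share arrays, and these values follow in part from those above.

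Related families were set beside the mitochondrial one, with no test of a difference. Nuclear-encoded subunits of the respiratory chain and ATP synthase came to 77 genes, and most of these complexes also hold products of mitochondrial translation. The 77 genes had medians close to those of the mitochondrial ribosomal proteins in all 4 comparisons. With ES against ischemia their median was 0.31, with 76 of 77 above 0, and with ES against exercise it was 0.28. With exercise against ischemia it was 0.03 and with ischemia against sham -0.09. The 44 cytosolic ribosomal proteins, which translate the mRNAs of the nucleus, were also higher with exercise than with ischemia, in 40 of 44 genes. Their median was 0.19 with ES and 0.18 with exercise, each against ischemia, and 0.05 with ES against exercise. The mitochondrial family had 0.28 in the last of these. With ES against ischemia 40 of the 44 were above 0, and with ischemia against sham 37 were below 0 (median -0.07). The order with ES highest and ischemia lowest held for 23 of the 44 and for 46 of the 77 respiratory chain genes. It held for 30 of the 73 members, so this order was not particular to them.

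**Figure D5:**
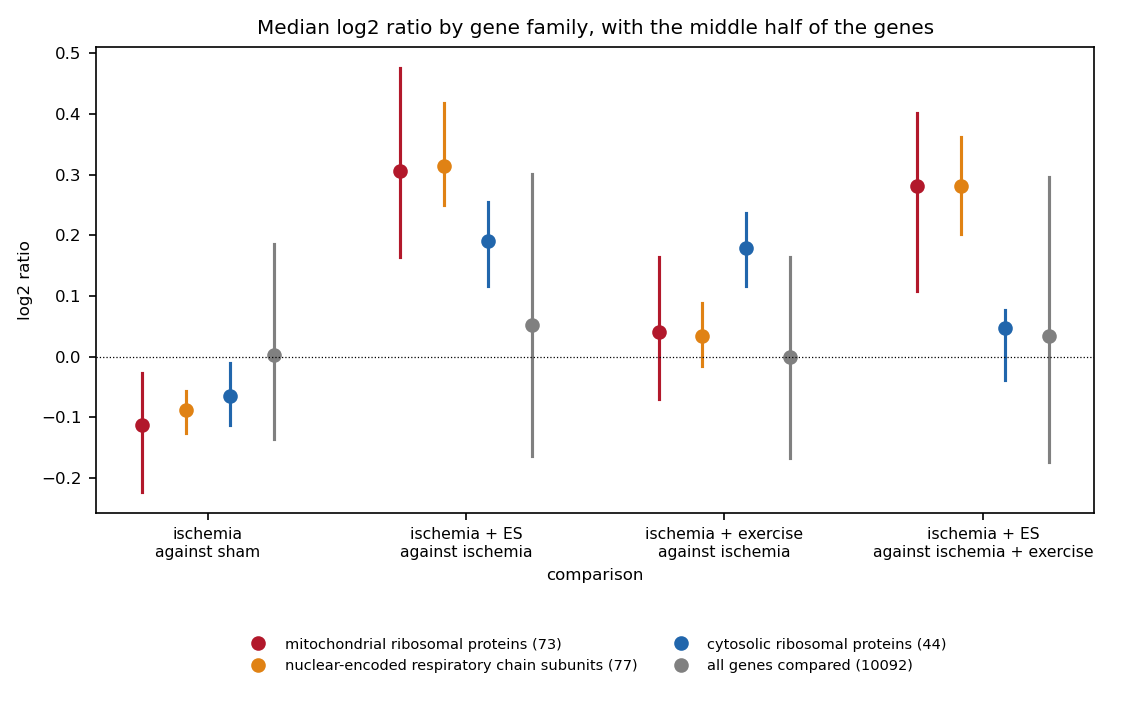
Median log2 ratio (points) and interquartile range over genes (lines) in 4 comparisons (horizontal axis) for 73 mitochondrial ribosomal proteins, 77 respiratory chain subunits, 44 cytosolic ribosomal proteins and all 10092 genes compared. Mitochondrial ribosomal proteins and respiratory chain subunits lie together, at 0.31 and 0.31 with ES against ischemia, while cytosolic ribosomal proteins lie at 0.19 with ES and 0.18 with exercise, each against ischemia.

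Other genes of mitochondrial translation were read from lists. Of the translation factors, 11 of 14 were compared, 8 were higher with ES than with ischemia and the median log2 ratio was 0.34. Of all genes compared 56% were higher, a share to set beside this list and those below. Tufm, the elongation factor that brings aminoacyl-tRNA to the mitoribosome, had a signal of 2116 with ES, 1446 with exercise, 1471 with ischemia and 1722 in sham, a log2 ratio of 0.52 over ischemia. Mtfmt, which formylates the initiator tRNA, was at 0.65 and Oxa1l, which inserts the new proteins into the inner membrane, at 0.46. Gfm1, the translocation factor, was at 0.01 with ES and at -0.55 with exercise, each against ischemia. With exercise the median of the list was -0.02.

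The mitochondrial aminoacyl-tRNA synthetases, 12 of 17 compared, had a median of 0.13 with ES against ischemia and 10 above 0. Cars2 was highest at 0.85 and Vars2 followed at 0.65, both from dim probe sets with signals under 80 on every array, while Fars2 was at 0.35 and Tars2 at 0.18. Of the assembly genes, 20 of 22 were compared and 16 were above 0, with a median of 0.14. With ES against exercise 11 of the 20 were above 0, with a median of 0.04. In that comparison the synthetases had a median of 0.17 and the translation factors one of 0.35. Mrm2, which methylates the large mitochondrial ribosomal RNA, had a signal of 98.6 with ES, 43.2 with exercise, 49.5 with ischemia and 39.9 in sham and was the only gene of these lists past 2-fold in the 4 comparisons, at 2.28-fold with ES against exercise. Rbfa, a maturation factor of the small subunit, was at 0.84 over ischemia and Mterf4 at 0.57. The assembly list also holds mitoribosomal proteins whose symbols lie outside the rule for members, such as Dap3 of the small subunit, at 0.23.

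The 6 genes of mitochondrial transcription and a list of 9 transcription factors and coactivators had lower medians with ES, at 0.09 and 0.06 against ischemia. Tefm, an elongation factor of mitochondrial transcription, was at 0.48, and Tfam, which packages mitochondrial DNA and acts in its transcription, at 0.19. Mterf2 was at 0.04 and Polrmt, the polymerase, at 0.01. Ppargc1a, the coactivator of mitochondrial biogenesis, had a signal of 334 with ES, 467 with exercise, 250.0 with ischemia and 308 in sham. It was highest with exercise, at 0.90 over ischemia, where the ribosomal family showed no common direction. Of the factors whose letters were searched above, Gabpa was at -0.44 with ES against ischemia, its partner Gabpb1 at 0.35, Nrf1 at 0.02 and Yy1 at -0.17.

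Markers of other cells differed between the same arrays, and their part in the values above was not tested. Of 7 endothelial markers 6 were compared, and all 6 were higher with ES than with ischemia. Sums of signals here are without the floor and over all listed markers with a probe set, compared or not. The endothelial sum was 3934 with ES, 2022 with exercise, 1888 with ischemia and 1950.4 in sham. All 9 macrophage markers were compared and summed to 4605 with ES, 1677 with exercise, 3817 with ischemia and 1595 in sham. The 5 fibroblast markers summed to 8426, 6828, 10064 and 6578 in that order of arrays. Gene by gene, with ES against ischemia, 4 of the 9 macrophage markers were above 0 (median log2 ratio -0.05). For fibroblasts 3 of the 5 were above 0 (median 0.01), and the endothelial median was 1.10. The adipocyte sum, 2 of 3 markers compared, was 51.2, 170.3, 58.7 and 64.8, and the erythroid sum of 2 markers 6879, 7142, 7138 and 10573.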

How the data were processed

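Total RNA of skeletal muscle was measured on 4 single-colour arrays, 1 per group, which were grouped by their group label. The values the authors deposited are an intensity for each probe set on a linear scale. Per the submitters' processing notes they were made with MAS5, of which no version is given. Each array had a 2% trimmed mean of 150.1, so the deposited values had been scaled to a common mean and a difference in total mRNA cannot be seen. Of 31099 probe sets, 20832 had 1 symbol in the platform annotation of 2016, 436 several and 9831 none, and those with several were left out. All 73 members matched a RefSeq gene (GRCr8) under the same symbol.

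Signals were rescaled to a common 2% trimmed mean, floored at the 50th percentile and log2 transformed (Python 3.11.15, pandas 2.3.3, numpy 2.4.6). A gene is its probe set with the highest mean. Mrps36 is not analysed here. No test was possible, the number of arrays limits the precision, and counts past 2-fold or 1.5-fold are given beside the share of all genes compared. The calculation was tested on simulated arrays with changes past 2-fold planted in bright genes. These changes were larger than any in the family, so the test does not show how well smaller ones are recovered. Alternatives were quantile and cyclic loess normalization (limma 3.58.1), floors at the 30th and 70th percentile, 1.5-fold, the mean of all probe sets, and leaving out probe sets ending in x_at or s_at. Further choices, made after seeing the data, were to use genes in the members' range of signal as a second background, and to leave 9 S6 kinase and RNase P genes out of the 53 that the symbol pattern took as cytosolic ribosomal proteins.

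The genes named are, per comparison, the 5 highest and 5 lowest members, the highest and lowest of each structural class with ES against ischemia, 6 fixed members (Mrpl12, Mrps12, Mrps18a, Mrps30, Mrps34 and Mrpl58), and up to 4 genes of each further list. Mrps16, Mrps31, Mrps22, Mrps11, Mrpl46 and Yy1 were named after their values were seen. Members, lists and comparisons were chosen with earlier results of these data known.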

Additional observations from a re-analysis of the deposited data

How the results depend on the processing

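The values rest on 1 array per group, so the spread between animals is unknown, and an error of an array, of its RNA or of its scaling would move all members together. The median log2 ratio of the 73 genes kept its sign under the 6 alternatives of normalization, floor and probe set choice. With ES against ischemia it ran from 0.29 to 0.35, with ES against exercise from 0.26 to 0.31, with exercise against ischemia from 0.03 to 0.04 and with ischemia against sham from -0.12 to -0.09. No member passed 2-fold under any of them. Lowering the threshold to 1.5-fold gave 11 genes higher with ES than with ischemia, against 9.8% of all genes compared. It gave 8 higher with ES than with exercise, against 10.5% of all genes, each in place of 0 at 2-fold. Up to 4 members changed sign per comparison and setting. Their ratios were at most 0.04 in size under quantile or loess normalization. With the mean of all probe sets, of up to 0.20, they were those of Mrpl51, Mrps18c, Mrps14 and Mrps9. These genes all lay above the floor, which is the median of all values and not a measured background. No paired analysis was possible because each group has 1 array.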
